A study of Mus musculus with 16 samples.

Results

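The 10 genes described here encode chromatin remodellers, Smarca4, Smarcc1, Arid1a, Chd1, Chd4, Chd7, Ino80, Ep400, Smarcad1 and Mbd3. They were chosen by gene identity from a given list of Ensembl identifiers, with no use of their measured values, and make up 10 of the 54446 mouse gene identifiers counted. All 10 identifiers were found in every library, with between 262 counts (Mbd3) and 11794 counts (Chd4) per library, and all 10 passed the filter on low counts that left 27488 identifiers for testing. The symbols came with the list, because the count files hold identifiers only.

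Remodellers are ATP-driven machines that slide, evict or exchange nucleosomes and so set which stretches of DNA are open to transcription factors and polymerase. BAF complexes, the mammalian SWI/SNF family, mostly open enhancers and promoters, whereas NuRD couples remodelling to histone deacetylation. INO80 and TIP60-p400 act on the histone variant H2A.Z, and the CHD proteins carry chromodomains beside their motor. Embryonic stem cells use a particular BAF assembly, built around Smarca4 and Smarcc1, and are known to depend on several of these machines for self-renewal or for leaving the pluripotent state.

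The study labelled newly made RNA in Mettl14 CKO and Control mouse embryonic stem cells on a C57BL/6 background to compare transcription between the genotypes. METTL14 works with METTL3 to write N6-methyladenosine, a methyl mark on messenger RNA, and CKO is read here as conditional knockout. All cells grew in 2i and LIF medium, which holds stem cells in the ground state, and received 5-ethynyl uridine (EU), a uridine analogue built into RNA as it is transcribed, at 0.5 mM for 10, 20, 30 or 60 min, 48 h after seeding. The 8 combinations of genotype and EU time, CKO and Control at each time, had 2 libraries each. The labels give neither how and when the allele was deleted nor how many clones were used, and nothing in them states that a group's libraries were independent cultures, so the p-values speak to variation among these libraries, possibly technical, and not beyond it. The level of Mettl14 itself, other remodeller subunits and stem cell marker genes were not analysed here, for want of a table pairing the identifiers with names.

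Mouse counts ran from 11902184 to 28502750 in 14 libraries and were 5188643 and 5109162 in the CKO libraries at 30 min. These CKO libraries stood apart in other ways. The number of identifiers with a count was 30583 and 31826 there, while the other libraries reached 26857 at most, and these CKO libraries put 1.67% and 1.63% of their counts on identifiers with no count in any Control library, against at most 0.0139% elsewhere. Results that span the EU times are given with and without the 30 min libraries, the slopes included, and their part in the 30 min differences was not tested.

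Levels are given as CPM, mouse counts scaled to a common library size with edgeR's trimmed mean (TMM) factors, which compares a gene with the bulk of the genes in the same library. Fold changes are log2 values with their standard error (SE) from edgeR's quasi-likelihood test on all 16 libraries. A gene was called at an adjusted p under 0.05 after Benjamini-Hochberg adjustment over all 27488 identifiers. In edgeR fits that left out a library the filter on low counts kept more identifiers, 29847 to 33508. A call gained or lost in such a fit therefore cannot be assigned to the omitted library alone. A second scale sets each count against the ERCC spike-in RNA, which per the labels' protocols was added after capture of the labelled RNA and so also carries differences in cell number and capture yield. The scales give opposite directions at 10 min, where a library held 28.6 and 34.3 mouse counts per ERCC count in CKO, against 11.6 and 12.3 in Control. In these bulk samples fewer cells and less RNA per cell cannot be told apart. CPM levels are not corrected for gene length, so no gene's level is set against another's.

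The promoters of 3 of the genes are shown because their levels mark the range of behaviour in the set. Across the 12 libraries at 10, 20 and 60 min, the log2 level of Arid1a and of Smarcc1 followed the mean of the other members most closely (Pearson's r 0.969 and 0.943), whereas Mbd3 ran opposite to it (r −0.75). Each sequence is the 250 bases upstream of the RefSeq start in GRCm38.p6, printed 5′ to 3′ on the gene's strand, and capitals mark motif matches on either strand. Arid1a lies on the minus strand (window chr4:133756770-133757019), Smarcc1 on the plus strand (chr9:110131774-110132023) and Mbd3 on the minus strand (chr10:80399532-80399781).
Arid1a: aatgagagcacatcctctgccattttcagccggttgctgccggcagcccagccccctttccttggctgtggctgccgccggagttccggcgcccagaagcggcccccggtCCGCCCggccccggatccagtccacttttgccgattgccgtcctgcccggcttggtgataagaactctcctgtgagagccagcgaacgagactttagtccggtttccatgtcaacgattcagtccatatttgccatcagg
Smarcc1: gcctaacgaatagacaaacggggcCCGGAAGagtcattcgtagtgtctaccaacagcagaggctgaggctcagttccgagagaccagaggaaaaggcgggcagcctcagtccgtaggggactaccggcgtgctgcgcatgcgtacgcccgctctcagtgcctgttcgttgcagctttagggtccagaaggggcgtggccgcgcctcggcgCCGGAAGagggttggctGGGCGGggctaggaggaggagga
Mbd3: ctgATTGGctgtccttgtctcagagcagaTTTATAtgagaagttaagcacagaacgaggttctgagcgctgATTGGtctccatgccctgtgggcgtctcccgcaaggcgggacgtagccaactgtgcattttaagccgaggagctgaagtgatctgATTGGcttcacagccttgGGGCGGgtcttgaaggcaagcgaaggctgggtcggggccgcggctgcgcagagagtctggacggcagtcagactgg

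Promoter windows were held for 8 of the 10 genes, all but Chd1 and Chd7, and were searched on both strands for 6 short motifs. The window of Ino80 (chr2:119477688-119477937) lies wholly inside the gene coordinates given below. Those of Ep400, Smarca4 and Chd4 lie partly inside theirs. The counts for these genes are thus not all from upstream of the gene starts given here. GGGCGG, the box read by SP and KLF factors, stood in 7 of the 8 windows, all but that of Smarcad1, against 32.7% of 32851 windows of all genes. The 8 windows held between 12 and 28 CpG dinucleotides, against a median of 6 in all windows. The windows of all genes were not matched to these for CpG content. The share with GGGCGG among windows of like CpG content is therefore not known. CCGGAAG, a core read by ETS factors, occurred in Smarcc1 alone (6.91% of all windows). CCAAT occurred in Ino80 and Mbd3 (33.8% of all windows) and TATAAA in Mbd3 alone (12.4%). Neither the YY1 core AAGATGGC (1.56% of all windows) nor the E-box CACGTG (6.02%) was found in any of the 8. The motifs were searched one by one, so matches of different motifs may share letters, and a match is a string of letters, not a measured binding site.

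After 10 min of EU, the shortest label, 7 of the 10 remodeller genes were lower in CKO than in Control relative to the bulk of the genes (background 5.36% of all identifiers lower), and 1, Mbd3, was higher (background 6.45%). The members' median log2 fold change was −0.52, against 0 over all identifiers. Among the 3099 identifiers within the members' range of mean CPM, 19.9% were called lower and 18.6% higher, with a median of −0.035. With ERCC scaling the direction turned: all 10 genes were above Control in CKO at 10 min and 9 were called higher (background 43.1%), the exception being Chd7 at 0.39 (SE 0.26, edgeR adjusted p = 0.251). The median over all identifiers with ERCC scaling was 1.14. The 7 genes called lower relative to other genes were thus all above Control per spike-in but below that median. Mbd3 was called higher on both scales.

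**Figure D1:**
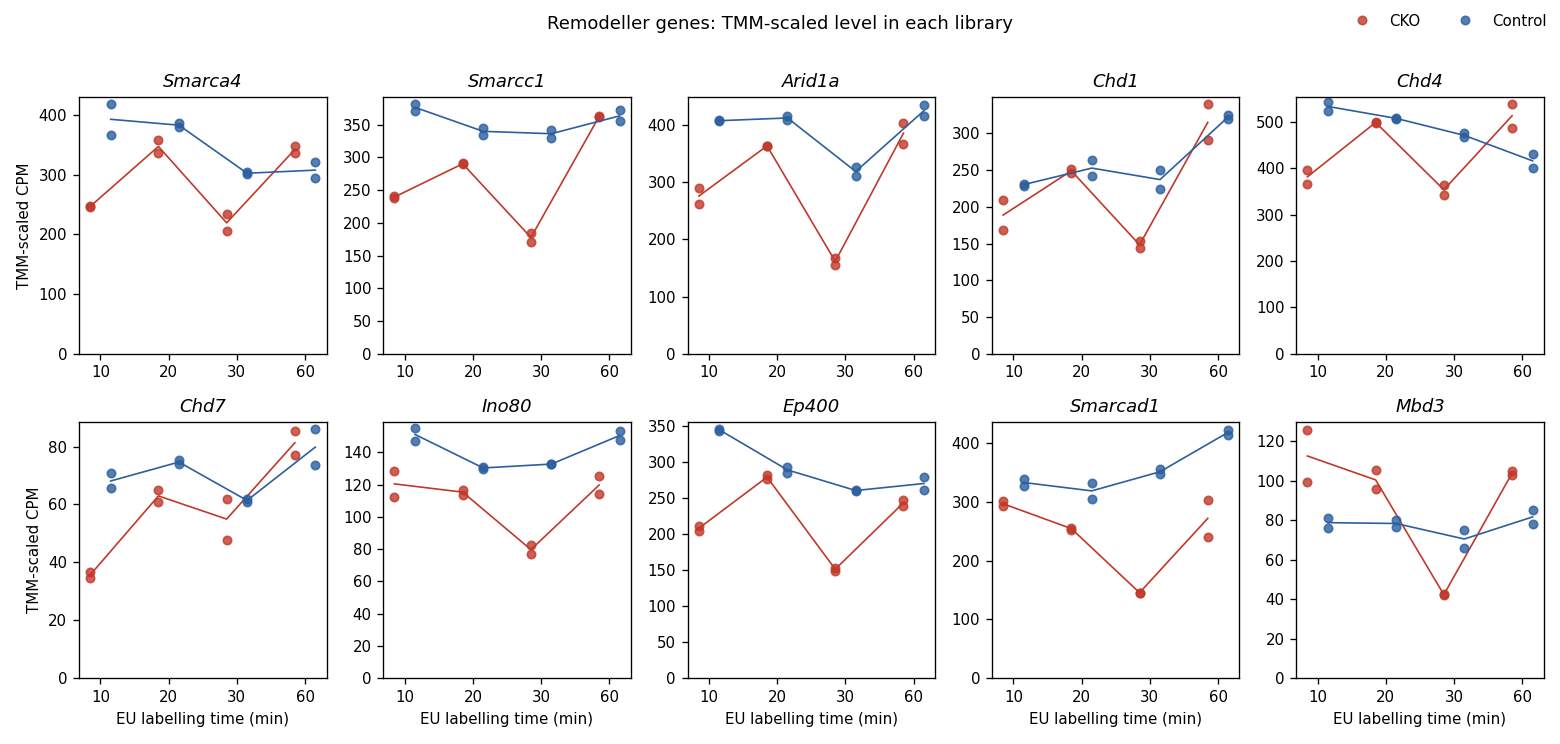
TMM-scaled CPM of each of the 10 remodeller genes (y axis, each panel with its own scale) against EU labelling time in min (x axis, times evenly spaced), with 1 point per library and lines through the group means of 2 libraries, CKO left of Control. At 10 min both CKO libraries lie below both Control libraries for 9 genes (background 18.9% of all identifiers) and above them for Mbd3 (background 19.4%), an order that turns for those 9 genes with ERCC scaling.

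Of the BAF genes, Smarca4 (ENSMUSG00000032187.16), at chr9:21616106-21704230 in mm10, encodes BRG1, the ATPase motor. At 10 min Smarca4 had 246 and 248 CPM in CKO libraries, against 366 and 419 CPM in Control libraries. At 60 min it had 349 and 336 CPM in CKO libraries, against 295 and 321 CPM in Control libraries. The groups did not overlap at either time, and the order of the genotypes was opposite. Of all identifiers at 60 min, 23.3% had both CKO libraries above both Control libraries and 22.4% had them below. The log2 fold change was −0.67 (SE 0.087, edgeR adjusted p = 5.11e-06) at 10 min and 0.15 (SE 0.086, edgeR adjusted p = 0.641) at 60 min, where it was not called. At 20 min Smarca4 had 337 and 358 CPM in CKO libraries, against 386 and 379.7 CPM in Control libraries, a difference that was not called (−0.14, adjusted p = 0.868).

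Smarcc1 (ENSMUSG00000032481.17), at chr9:110132024-110240178, encodes BAF155, a scaffold subunit around which the BAF core is built. It had 241 and 238 CPM in CKO libraries, against 382 and 371 CPM in Control libraries at 10 min. By 60 min the libraries overlapped, at 361 and 364 CPM in CKO libraries, against 372 and 355 CPM in Control libraries. The 10 min log2 fold change was −0.65 (SE 0.079, edgeR adjusted p = 1.64e-06), and the 60 min value was −0.0034 (adjusted p = 1). Arid1a (ENSMUSG00000007880.16), at chr4:133679008-133756769, encodes the large DNA-binding subunit that marks the canonical form of BAF. It had 289 and 262 CPM in CKO libraries, against 407 and 408 CPM in Control libraries at 10 min, −0.56 on the log2 scale (SE 0.081, edgeR adjusted p = 2.14e-05). At 60 min Arid1a had 367 and 404 CPM in CKO libraries, against 415 and 434 CPM in Control libraries, still without overlap, at −0.14 (adjusted p = 0.665). All 3 BAF genes were thus lower in CKO at 10 min on the CPM scale, and each of the 3 calls held in all 16 fits that left out 1 library. With ERCC scaling Smarca4, Smarcc1 and Arid1a were higher in CKO at 10 min, by 0.65, 0.67 and 0.75 on the log2 scale.

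On the CPM scale the NuRD genes differed in opposite directions at 10 min. Chd4 (ENSMUSG00000063870.12), at chr6:125095980-125130591, encodes the motor of NuRD, and Mbd3 (ENSMUSG00000035478.14), at chr10:80392539-80399531, encodes the methyl-CpG-binding-domain subunit that stem cells need to commit to a lineage. At 10 min Chd4 had 396 and 366 CPM in CKO libraries, against 543 and 523 CPM in Control libraries, a log2 fold change of −0.48 (SE 0.077, edgeR adjusted p = 8.1e-05). At 60 min Chd4 had 538 and 487 CPM in CKO libraries, against 401 and 430.0 CPM in Control libraries. Here CKO was the higher genotype, at 0.30 (SE 0.077, edgeR adjusted p = 0.0282) (background 1.79% of all identifiers higher, and 8.23% of those in the members' range of CPM). In the 16 fits that left out 1 library the 60 min value for Chd4 lay between 0.20 and 0.32. The call was lost in most of these fits. They also kept more identifiers for testing, so the losses cannot be assigned to single libraries. The call was also lost when the libraries were scaled by ERCC counts.

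Mbd3 had 99.3 and 126 CPM in CKO libraries, against 81.4 and 76.2 CPM in Control libraries at 10 min, and 105 and 95.6 CPM in CKO libraries, against 80.2 and 76.5 CPM in Control libraries at 20 min. At 60 min it had 103 and 105 CPM in CKO libraries, against 78.3 and 85.0 CPM in Control libraries. Both CKO libraries lay above both Control libraries at all 3 of these times. The log2 fold change was 0.51 (SE 0.12, edgeR adjusted p = 0.00531) at 10 min, 0.36 at 20 min (adjusted p = 0.283) and 0.35 at 60 min (adjusted p = 0.169). The 10 min call was lost without the Control replicate 2 library (adjusted p = 0.0627) or the CKO replicate 2 library (adjusted p = 0.195). Mbd3 was also higher in CKO at 10 min with ERCC scaling, at 1.85 (SE 0.26, edgeR adjusted p = 2.51e-07), while Chd4 turned to 0.84.

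Chd7 (ENSMUSG00000041235.12), at chr4:8690402-8868449, encodes an enhancer-binding remodeller whose human counterpart is mutated in CHARGE syndrome. It had the lowest fold change of the 10 genes at 10 min, with 36.8 and 34.5 CPM in CKO libraries, against 65.5 and 70.7 CPM in Control libraries, a log2 value of −0.93 (SE 0.14, edgeR adjusted p = 3.36e-05). At 60 min Chd7 had 85.5 and 77.1 CPM in CKO libraries, against 73.6 and 86.0 CPM in Control libraries, so that the genotypes overlapped (0.026, adjusted p = 1). Chd1 (ENSMUSG00000023852.14), at chr17:15704967-15772612, encodes a remodeller that binds the H3K4 trimethyl mark of active promoters and keeps stem cell chromatin open. At 10 min it had 209 and 168 CPM in CKO libraries, against 229 and 232 CPM in Control libraries, at −0.29 (SE 0.10, edgeR adjusted p = 0.0645), which was not called, although the libraries did not overlap, and which passed in 5 of the 16 fits without 1 library (adjusted p 0.00505 to 0.531). At 60 min Chd1 had 290.3 and 339 CPM in CKO libraries, against 319 and 325 CPM in Control libraries, with the Control values inside the spread of the CKO values (−0.033, adjusted p = 1). With ERCC scaling Chd1 was called higher in CKO at 10 min, at 1.02.

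Ino80 (ENSMUSG00000034154.15), at chr2:119373042-119478685, and Ep400 (ENSMUSG00000029505.17), at chr5:110664373-110770927, encode the motors of the INO80 and TIP60-p400 complexes. Ep400 had 205 and 211 CPM in CKO libraries, against 343 and 346 CPM in Control libraries at 10 min, and its fold change, −0.73 (SE 0.081, edgeR adjusted p = 4.68e-07), had the lowest adjusted p of the 10 genes. At 60 min Ep400 had 239.6 and 247 CPM in CKO libraries, against 261 and 279.7 CPM in Control libraries, still without overlap, at −0.15 (adjusted p = 0.586). Ino80 had 113 and 128 CPM in CKO libraries, against 155 and 147 CPM in Control libraries at 10 min and 114 and 125 CPM in CKO libraries, against 153 and 148 CPM in Control libraries at 60 min. Its difference was of nearly the same size at both times, −0.33 (SE 0.10, edgeR adjusted p = 0.0334) at 10 min and −0.33 (SE 0.10, edgeR adjusted p = 0.0859) at 60 min. The 10 min call for Ino80 held in 5 of the 16 fits without 1 library (adjusted p 0.00845 to 0.234), and the uncalled 60 min difference passed the test in 5 of 16. With ERCC scaling Ep400 and Ino80 were higher in CKO at 10 min, by 0.60 and 1.00.

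Smarcad1 (ENSMUSG00000029920.9), at chr6:65042591-65116061, encodes an SNF2-family remodeller that helps restore silent chromatin behind the replication fork. At 10 min it had 301 and 292 CPM in CKO libraries, against 339 and 327 CPM in Control libraries, a difference of −0.17 that was not called (adjusted p = 0.268). At 20 min it had 256 and 253 CPM in CKO libraries, against 304 and 333 CPM in Control libraries, at −0.32 (adjusted p = 0.112). At 60 min it had 240.2 and 304 CPM in CKO libraries, against 423 and 414 CPM in Control libraries. The libraries overlapped at none of these times, and the gap between the genotypes was widest at 60 min of the 3. There Smarcad1 was the only member that edgeR called lower, at −0.62 (SE 0.091, edgeR adjusted p = 0.000148) (background 0.84% of all identifiers lower, and 5.13% of those in the members' range of CPM). This call held in all 16 fits without 1 library, with log2 values from −0.86 to −0.50, but not with ERCC scaling, where it was −0.56 (adjusted p = 1) and none of the 10 genes was called at 60 min.

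At 20 min, none of the 10 genes was called by edgeR (background 0.96% of all identifiers called), 4 had an unadjusted p under 0.05 (background 7.02%) and DESeq2 called 2, Smarcc1 and Smarcad1, both lower (background 1.03%). The fold changes lay between −0.32 (Smarcad1) and 0.36 (Mbd3). Smarcc1 had 289.8 and 291 CPM in CKO libraries, against 345 and 334 CPM in Control libraries and Arid1a had 363 and 363 CPM in CKO libraries, against 408 and 416 CPM in Control libraries. Chd7 had 65.1 and 60.9 CPM in CKO libraries, against 75.2 and 74.1 CPM in Control libraries, a smaller gap than at 10 min, and Ep400 had 281 and 277 CPM in CKO libraries, against 293 and 285 CPM in Control libraries. Both CKO libraries lay below both Control libraries for 8 genes (background 20.6%) and above them for Mbd3 (background 21.1%), and Chd1 overlapped. Per spike-in that order turned at 20 min for all of the 8 but Smarcad1, whose libraries overlapped. Chd1 and Mbd3 lay above Control on that scale. The median log2 fold change over all identifiers with ERCC scaling was 0.36 at 20 min. Ino80 had 117 and 114 CPM in CKO libraries, against 131 and 129.7 CPM in Control libraries, and Chd4 had 499 and 497 CPM in CKO libraries, against 506 and 509 CPM in Control libraries, close in all 4 libraries. Smarcad1 passed in 4 of the 16 fits without 1 library, each lacking a CKO library of 30 or 60 min (adjusted p from 0.014). A fit of the 4 libraries at 20 min alone called 5 genes, with Smarca4, Smarcc1, Arid1a and Smarcad1 lower (background 5.98%) and Mbd3 higher (background 6.96%).

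At 30 min, 9 genes were called lower in CKO, all but Chd7 (background 19.1% of all identifiers lower). Smarcad1 had 146 and 145 CPM in CKO libraries, against 347 and 355 CPM in Control libraries, at −1.27 (SE 0.095, edgeR adjusted p = 1.63e-10). Smarcc1 had 170.1 and 185 CPM in CKO libraries, against 342 and 330.2 CPM in Control libraries, at −0.92, and Arid1a had 155 and 168 CPM in CKO libraries, against 326 and 311 CPM in Control libraries, at −0.98. Mbd3, the member that was higher in CKO at 10 min, had 41.9 and 42.7 CPM in CKO libraries, against 66.0 and 75.0 CPM in Control libraries, at −0.74 (SE 0.13, edgeR adjusted p = 7.98e-05). Among the motors, Smarca4 had 205 and 234 CPM in CKO libraries, against 301 and 304 CPM in Control libraries, and Ep400 had 154 and 149 CPM in CKO libraries, against 261 and 260.2 CPM in Control libraries. Chd7 was the exception, with 62.0 and 47.9 CPM in CKO libraries, against 60.9 and 61.9 CPM in Control libraries, CKO values that spread on either side of Control (−0.16, adjusted p = 0.345). In Ino80 (−0.74), Chd1 (−0.68) and Chd4 (−0.41) both CKO libraries lay below both Control libraries (background 28.9% of all identifiers). The members' share was close to that of all genes of like abundance: 80.2% of the 3099 identifiers in the members' range of CPM were called lower at 30 min, with a median of −0.62, while the median over all 27488 identifiers was 0.61. The members' median was −0.74. These values rest on the CKO libraries with the low depth and the counts on identifiers silent in Control. With the filter on low counts made stricter, 5 of the genes were called lower, namely Smarcc1, Arid1a, Ino80, Ep400 and Smarcad1 (background 20.4%).

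**Figure D2:**
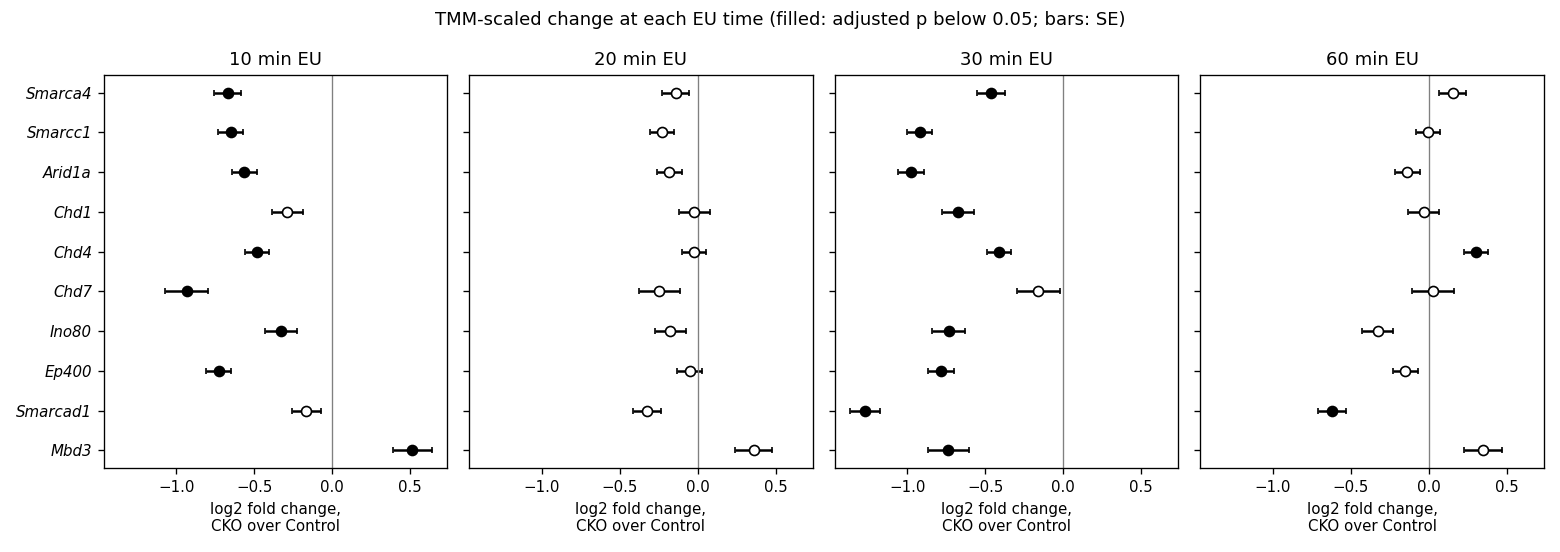
Log2 fold change of CKO over Control (x axis) for each remodeller gene (1 per line) in a panel for each EU time, with TMM scaling; bars give the SE from edgeR's fit on 16 libraries and filled points passed the test. Chd7 stands lowest at 10 min at −0.93 and Smarcad1 lowest at 30 min at −1.27, and Mbd3 is above 0 at 10, 20 and 60 min; with ERCC scaling all 10 values at 10 min are above 0.

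The genotype difference averaged over the 4 EU times was estimated with an additive model. This model does not test whether the difference was the same at each time. It called 5 genes, all lower in CKO (background 4.7% of all identifiers lower): Smarcad1 at −0.59 (SE 0.12, edgeR adjusted p = 0.00475), Arid1a at −0.46, Smarcc1 at −0.45, Ep400 at −0.43 and Ino80 at −0.39. The other 5 lay between −0.32 (Chd7) and 0.14 (Mbd3). The members' median was −0.36, against 0.19 over all identifiers and −0.18 over those of like abundance, of which 20.7% were called lower. Each of the 5 calls held in all 16 fits without 1 library. Smarca4 (adjusted p = 0.0796) passed without the Control 60 min replicate 1 library, at 0.0479, and Chd7 (adjusted p = 0.0699) passed without the CKO 30 min replicate 1 library, at 0.0243.

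Without the 30 min libraries the same model called 7 genes. Lower were Smarcad1 at −0.39 (SE 0.076, edgeR adjusted p = 0.00206), Ep400 at −0.32, Smarcc1 at −0.31, Arid1a at −0.31, Ino80 at −0.29 and also Chd7 at −0.39 (SE 0.12, edgeR adjusted p = 0.0411) (background 6.04% lower). Mbd3 was then called higher, at 0.39 (SE 0.074, edgeR adjusted p = 0.00163) (background 6.55% higher). Without the 10 min libraries 2 calls were left, Smarcad1 and Ino80, and with ERCC scaling none was made. On that scale 6 of the 9 values below 0 turned positive, Smarca4 (0.14), Chd1 (0.18), Chd4 (0.27), Chd7 (0.11), Ino80 (0.039) and Ep400 (0.0045).

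Whether the genotype difference itself changed with EU time was tested next. All 10 genes passed the test of a genotype by EU time interaction (background 22.7% of all identifiers, and 78.2% of those in the members' range of CPM), with Smarcc1 at an adjusted p of 2.42e-06 and Ino80, the least certain, at 0.0272. The call for Ino80 held in 3 of the 16 fits without 1 library, and that for Chd1 was lost without the Control 30 min replicate 1 library (adjusted p = 0.0725). Most identifiers of like abundance passed too, so the calls with all libraries are not particular to the members. Without the 30 min libraries 6 genes were called, namely Smarca4, Smarcc1, Arid1a, Chd4, Chd7 and Ep400 (background 5.58%). Chd1, Ino80, Smarcad1 and Mbd3 were then not called.

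The ends of the labelling series were then compared within each genotype, 60 over 10 min. In CKO, 6 genes rose relative to the bulk of genes and none fell (background 8.96% of all identifiers higher, and 35.8% of those of like abundance). Chd7 rose most, by 1.19 (SE 0.14, edgeR adjusted p = 4.67e-07) on the log2 scale, followed by Chd1 (0.74), Smarcc1 (0.60), Arid1a (0.48), Smarca4 (0.47) and Chd4 (0.43). In Control, Chd1 rose by 0.49 (SE 0.10, edgeR adjusted p = 0.00133) and Smarcad1 by 0.33 (SE 0.091, edgeR adjusted p = 0.0177) (background 6.88% higher, and 27.6% of those of like abundance). Smarca4 at −0.35, Chd4 at −0.36 and Ep400 at −0.35 fell in Control (background 3.21% lower, and 8.07% of those of like abundance). Of the 5 Control calls, Chd1 alone held in all 16 fits without 1 library: leaving out the Control 60 min replicate 1 library ended the calls for Smarca4 (adjusted p = 0.283), Chd4 (adjusted p = 0.154), Ep400 (adjusted p = 0.283) and Smarcad1 (adjusted p = 0.139). Leaving out any of the other Control libraries of 10 or 60 min ended the calls for Ep400 and Smarcad1 too, with adjusted p of 0.0531 to 0.134. The call for Smarca4 was also lost without the Control 10 min replicate 2 library (adjusted p = 0.246) and that for Chd4 without the Control 10 min replicate 1 library (adjusted p = 0.0619). In CKO the 6 calls held in all 16 fits, and Smarcad1 was called lower without the CKO 60 min replicate 2 library (−0.32 (SE 0.10, edgeR adjusted p = 0.0358)).

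Tested directly, the change from 10 to 60 min was larger in CKO than in Control for 6 genes and smaller for none (background 1.39% of all identifiers larger, and 7.58% of those of like abundance). The difference of the log2 changes was 0.96 (SE 0.19, edgeR adjusted p = 0.00498) for Chd7, 0.82 (SE 0.12, edgeR adjusted p = 0.000205) for Smarca4 and 0.79 (SE 0.11, edgeR adjusted p = 8.05e-05) for Chd4. It was 0.65 for Smarcc1, 0.58 for Ep400 and 0.42 for Arid1a (adjusted p = 0.0437). Smarcad1 ran the other way, at −0.46 (SE 0.13, edgeR adjusted p = 0.06), which was not called but passed in 3 of the 16 fits without 1 library (lowest adjusted p 0.000572), and Ino80 was at −0.0017. The calls for Chd7 (adjusted p = 0.0772) and Ep400 (adjusted p = 0.138) were lost without the Control 60 min replicate 1 library, and that for Arid1a held in 4 of 16 such fits.

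**Figure D3:**
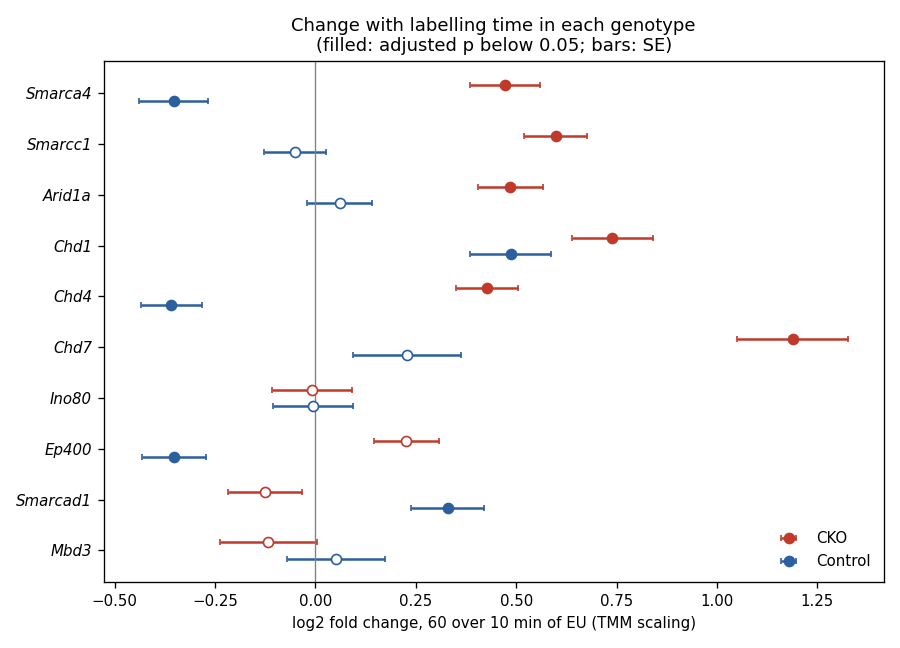
Log2 fold change of 60 over 10 min of EU (x axis) for each remodeller gene (1 per line), CKO above Control, with TMM scaling; bars give the SE from edgeR's fit on 16 libraries and filled points passed the test. Chd7 reaches 1.19 in CKO, against 0.23 in Control, and Smarca4, Chd4 and Ep400 lie above 0 in CKO, against below 0 in Control; with ERCC scaling all 10 genes lie above 0 in both genotypes.

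Set against the spike-in, every one of the 10 genes gained counts between 10 and 60 min in both genotypes. Smarcad1 averaged 8.92 ± 0.787 counts per 1000 ERCC counts in CKO and 4.001 ± 0.0373 in Control at 10 min (SD, n = 2 each). At 60 min it averaged 35.6 ± 10.1 in CKO and 52.6 ± 1.36 in Control, lower in CKO than in Control but, as given above, not called. Mbd3 averaged 3.42 ± 0.932 in CKO and 0.946 ± 0.0101 in Control at 10 min, and 13.5 ± 1.83 in CKO and 10.3 ± 0.482 in Control at 60 min, higher in CKO at both. The log2 rise lay between 1.98 and 3.29 in CKO (background 52.9% higher) and between 3.03 and 3.87 in Control (background 66.5% higher). On this scale the rise was smaller in CKO for all 10 genes and called so for 5 (background 29%): Smarcad1 at −1.72, Mbd3 at −1.46, Ino80 at −1.28, Chd1 at −1.003 and Arid1a at −0.84. The 6 genes whose change was larger in CKO on the CPM scale thus had the opposite sign with ERCC scaling. All 6 lay less far below 0 than the median over all identifiers on this scale, −1.17.

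**Figure D4:**
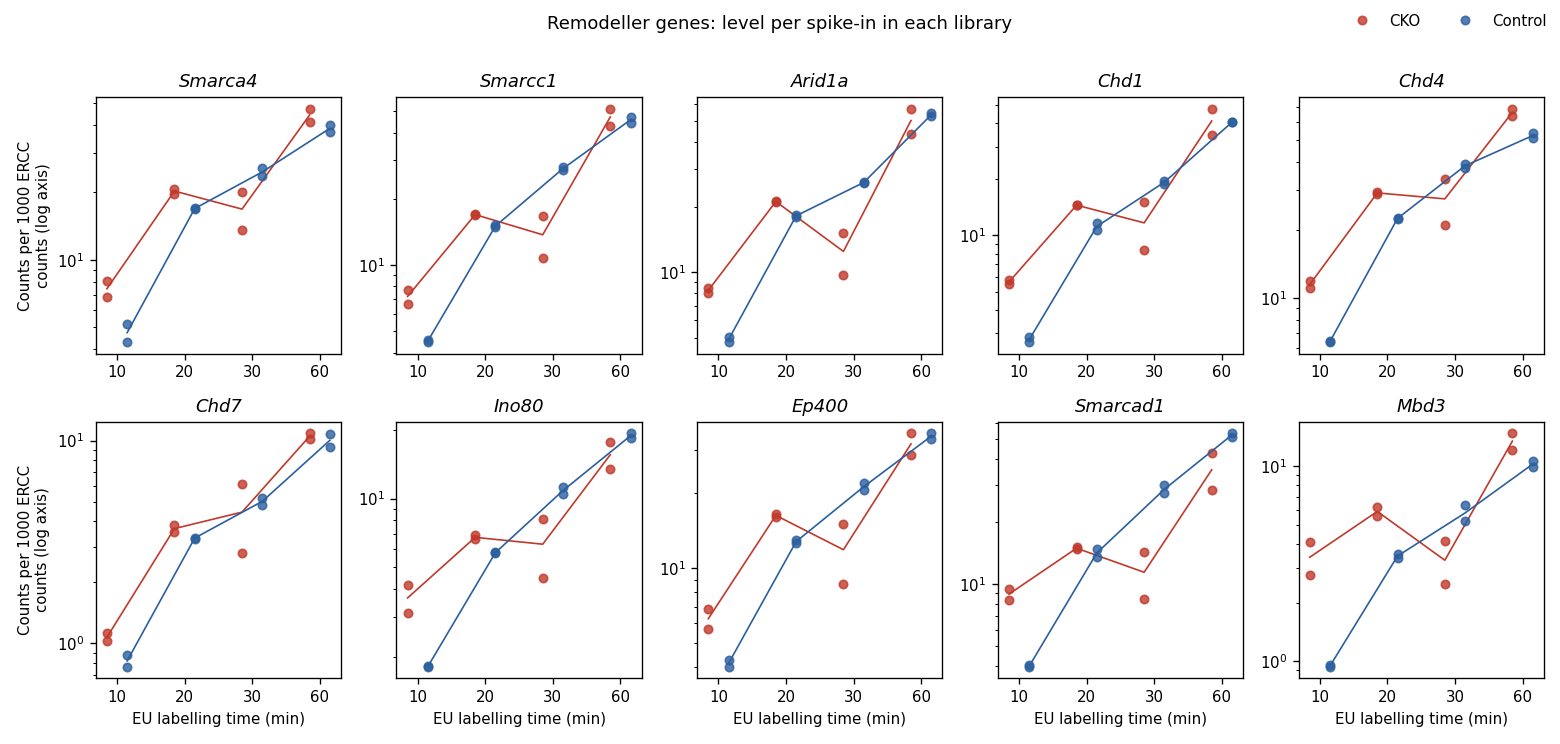
Counts per 1000 ERCC counts of each remodeller gene (y axis, log scale) against EU labelling time in min (x axis, times evenly spaced), with 1 point per library and lines through the group means of 2 libraries, CKO left of Control. At 10 min both CKO libraries lie above both Control libraries in every panel (background 52.7% of all identifiers), the opposite of the CPM order for 9 of the genes.

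The slope of counts per 1000 ERCC counts on EU minutes was fitted as a measure of how fast labelled RNA of each gene built up. Smarcad1 gained 0.530 ± 0.116 per min in CKO and 0.968 ± 0.0521 per min in Control (± the slope's SE, 8 libraries in each genotype), a log2 ratio of −0.87 with an exact two-sided permutation p of 0.0185 (adjusted over 9483 identifiers, 0.123). Ino80 gained 0.234 ± 0.0385 per min in CKO and 0.338 ± 0.0206 per min in Control, a log2 ratio of −0.53 (exact permutation p = 0.00926, adjusted 0.0798). The other 8 genes had log2 slope ratios between −0.29 and 0.27, against a median of −0.20 over all identifiers tested. No gene was called (background 0% of identifiers), and the 2 of 10 with an unadjusted p under 0.05 stand beside 20.2% of all identifiers.

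The power of this permutation test for these data is not known. The smallest p it could reach was 0.00926, the value of Ino80. In simulated data a slope halved at every EU time gave a p under 0.05 in 0 of 200 genes. The simulation set CKO below Control at 10 min too, whereas per spike-in all 10 genes were above Control there. It therefore does not measure the power for these genes. A slope that missed the threshold is not shown to be alike in the genotypes. The slope of log2 counts on log2 minutes measures the rise in proportion to the level. A level changed by the same factor at every EU time leaves it unchanged, so its values are not comparable with the slope ratios above. It called 3 genes lower in CKO, Smarcad1 at −0.76, Ino80 at −0.56 and Ep400 at −0.36 (background 20% called in either direction). Per spike-in, all 3 averaged more in CKO than in Control at 10 min and less at 60 min. The median over all identifiers on this log2 scale was −0.57, so Ino80 lay near it and Ep400 was less far below 0. Without the 30 min libraries, an alternative chosen after seeing the data, the log2 slope called none of the 10 (background 0%), with Smarcad1 at −0.65 and Ino80 at −0.48. With 216 assignments the smallest permutation p there was 0.00926, against 0.00154 for the log2 slope with all libraries. The numbers of calls are therefore not comparable. The plain slope was the same without the 30 min libraries, since 30 min is the mean of the EU times and carries no weight.

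The plain slopes depended on single CKO libraries of 60 min. Without the CKO 60 min replicate 1 library 2 genes were called (background 9.28%). Without the CKO 60 min replicate 2 library 6 genes were called, a share near the background of 45.3%. The log2 ratios without that library were −1.46 for Smarcad1, −0.88 for Ino80, −0.61 for Arid1a, −0.56 for Ep400, −0.50 for Chd1 and −0.29 for Smarcc1, against a median of −0.42 over all identifiers. With all libraries they were −0.23 for Arid1a, −0.29 for Ep400, −0.10 for Chd1 and −0.041 for Smarcc1, beside the values of Smarcad1 and Ino80 above.

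The genes also differ in genomic span, from 6993 bases for Mbd3 to 178048 bases for Chd7. The gene with the longest span had the lowest fold change at 10 min and the gene with the shortest span the highest. Between them the order was loose: Chd4, the second shortest at 34.6 kb, was at −0.48, whereas Smarcad1, at 73.5 kb, was at −0.17, and Ino80 at 106 kb was at −0.33, against −0.73 for Ep400 at 107 kb. Over 10 genes that share their libraries this is a description, and the part of gene length in the 10 min differences was not tested.

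**Figure D5:**
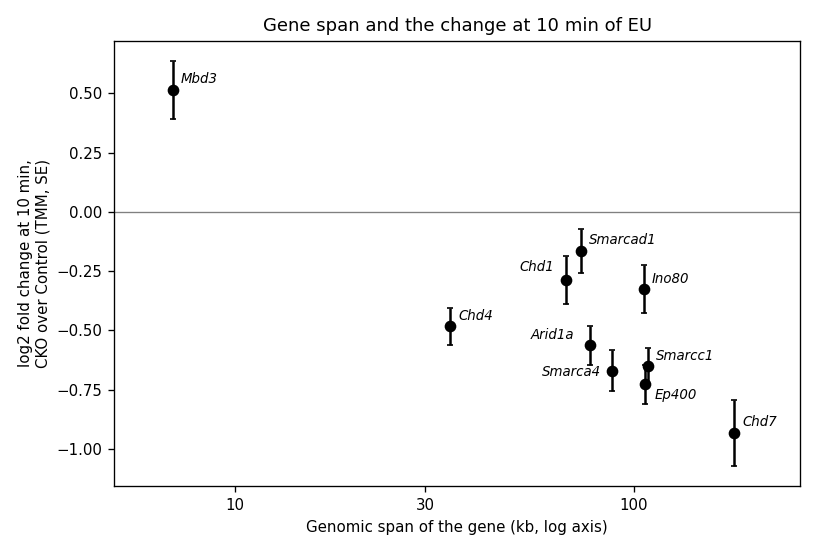
Log2 fold change of CKO over Control at 10 min of EU with TMM scaling (y axis, bars give the SE from edgeR's fit on 16 libraries) against the genomic span of each remodeller gene in kb (x axis, log scale). Mbd3, the shortest, stands at 0.51 and Chd7, the longest, at −0.93; with ERCC scaling all 10 genes are above 0.

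The levels of the members across the 12 libraries without the 30 min time fell into a graded order of likeness. Chd7 had an r of 0.904 with the mean of the other members, Smarca4 0.707, Ep400 0.677, Chd1 0.644, Chd4 0.562 and Ino80 0.476, below the values of Arid1a and Smarcc1 given with their promoters. Smarcad1 stood apart at 0.241. Of 9473 other identifiers at 10 CPM or more, the ones most like the members' mean profile were ENSMUSG00000024590.8 (r 0.973) and ENSMUSG00000037791.15 (r 0.971), to which the files give no name. The points share libraries and scaling, so these correlations describe the libraries.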

How the data were processed

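EU-labelled RNA was measured in 16 libraries. The authors deposited unnormalised counts for 54446 mouse identifiers and 92 ERCC species in each library. The submitters' processing notes name Trimmomatic 0.38, HISAT2 2.1.0, HTSeq, CASAVA and the mm10 build. Strand setting, annotation release and the feature counted (exon or gene) are not given in the sources used, so reads of overlapping or antisense genes may be shared. Total and nascent polyA both stand in the labels for the RNA.

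Counts were tested with edgeR 4.0.16 in R 4.3.3 (TMM on mouse counts, filterByExpr by group, robust glmQLFit and glmQLFTest, Benjamini-Hochberg over 27488 identifiers, threshold 0.05). A model adding EU time and genotype gave the difference averaged over the EU times. A model of 8 group means gave the differences at each time, within each genotype and between them. Slopes were tested by permuting genotype labels among the libraries of each EU time (exact, 1296 assignments) over 9483 identifiers with a mean of at least 10 CPM. Scripts were tested on simulated data. Alternatives were DESeq2 1.42.0, other scalings, filters, subsets of libraries and the replicate number as a block.

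All 10 members are named whatever their values. The members were chosen by gene identity and not by their measured values, but members and lists were drawn up with earlier results of these data known. The lists of other remodeller subunits and of cell type markers, and Mettl14, could not be matched: 0 identifiers had an Ensembl entry in the gene table, while all 10 members matched it by symbol, which gave their RefSeq GRCm38.p6 (mm10) coordinates. Replicates of each group differed beyond counting noise (chi-square per degree of freedom 3.51 to 21.0) and were kept as separate samples. Intervals and tests cover these libraries' spread. Mouse counts per library, 5109162 to 28502750, gave each member at least 262 counts.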

Additional observations from a re-analysis of the deposited data

Results flagged for a closer look

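The change from 10 to 60 min of EU differed between the genotypes by a direct test for 6 of the genes, as the CKO change minus the Control change on the log2 scale with TMM scaling: 0.82 for Smarca4, 0.65 for Smarcc1, 0.42 for Arid1a, 0.79 for Chd4, 0.96 for Chd7 and 0.58 for Ep400. With ERCC scaling all 6 values were below 0, but less far below it than the median of −1.17 over all identifiers. A genotype by EU time interaction was called for 10 of the 10 genes (22.7% of all identifiers and 78.2% of those of like abundance), and for 6 without the 30 min libraries (5.58% of all identifiers).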

How the results depend on the processing

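Over 2404 comparisons of a member's value under an alternative with its main value, 2107 kept the side of the threshold without a turn of sign. Another 91 turned sign with no call in either, 73 gained a call, 106 lost one and 27 turned sign with a call, 26 of these with ERCC scaling. The genotype by EU time comparisons have no sign and were judged by the threshold alone. The edgeR fits without 1 library tested 29847 to 33508 identifiers, against 27488 in the main fit, so their numbers of calls also carry the changed filter. Slope tests without a library of 10, 20 or 60 min reached a smaller p than the main one, so their numbers of calls are not comparable with it. The number of the 10 genes called changed as follows. Over all EU times it was 5, 6 with DESeq2, 7 without the 30 min libraries, 0 with ERCC scaling and 2 without the 10 min libraries. At 10 min it was 8, 9 with ERCC scaling (all higher), 6 with the 4 libraries alone (all lower, Mbd3 not called) and 6 to 9 without 1 library. At 20 min it was 0, 2 with DESeq2, 1 with the stricter filter (10 CPM in 4 libraries), 5 with the 4 libraries alone and 0 to 1 without 1 library. At 30 min it was 9, and 5 with the stricter filter. At 60 min it was 2, 4 with DESeq2, 0 with ERCC scaling, 1 with no filter and 1 to 3 without 1 library. For genotype by EU time it was 10, and 6 without the 30 min libraries. For 60 over 10 min it was 6 in CKO and 5 in Control, 10 in each with ERCC scaling, and 1 to 5 in Control without 1 library. For the difference of those changes it was 6, and 3 to 7 without 1 library (3 without the Control 60 min replicate 1 library). For the slope it was 0, 3 on the log2 scale, 0 on the log2 scale without the 30 min libraries (chosen after seeing the data), and 0 to 6 without 1 library.

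With ERCC scaling the sign turned, with a call on either scale, at 10 min for Smarca4 (0.65), Smarcc1 (0.67), Arid1a (0.75), Chd1 (1.02), Chd4 (0.84), Chd7 (0.39), Ino80 (1.00), Ep400 (0.60) and Smarcad1 (1.16), and over all EU times for Ino80 (0.039) and Ep400 (0.0045). For 60 over 10 min it turned in CKO for Ino80 (2.098), Smarcad1 (2.00) and Mbd3 (1.98), and in Control for Smarca4 (3.03), Smarcc1 (3.34), Chd4 (3.03), Ino80 (3.38) and Ep400 (3.03). The difference of the changes turned for Smarca4 (−0.45), Smarcc1 (−0.63), Arid1a (−0.84), Chd1 (−1.003), Chd4 (−0.49), Chd7 (−0.32) and Ep400 (−0.70). Chd4 at 30 min was at 0.0098 with the stricter filter. With ERCC scaling the median over all identifiers was 1.14 at 10 min and −1.17 for the difference of the changes. The cause of the turned signs was not tested.

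Libraries with the same replicate number did not deviate together (r −0.0077 to 0.027 at the 4 times). With the replicate number as a block the number called was 5 over all EU times, 9 at 10 min, 0 at 20 min, 9 at 30 min, 2 at 60 min, 7 for the difference of the changes, 10 for genotype by EU time, 6 for 60 over 10 min in CKO and 5 in Control. With 2 libraries in a group the spread is poorly known, and depth limits the 30 min CKO values most.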
